A study of Mus musculus with 19 samples.

Results

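The urea cycle genes are the 8 rows of the liver count table with the symbols Cps1, Otc, Ass1, Asl, Arg1, Nags, Slc25a15 and Slc25a13, taken by name from 55836 genes. All 8 passed the filter on low counts that left 13597 genes for testing. Liver RNA was sequenced from 19 male wild-type C57BL/6 mice, bought at 8 weeks of age and then kept for 8 weeks on a control diet (CD) or on a diet rich in fat, fructose and cholesterol (MD), a model of metabolic dysfunction-associated steatohepatitis. Over the same time each mouse was gavaged daily with vehicle (Veh, Tween 20 in water) or with 2 mg of polyethylene microplastic particles (PE). There were 4 mice in CD + Veh and 5 in each of the groups CD + PE, MD + Veh and MD + PE, with 1 library for each mouse. The p-values therefore set differences between groups against the spread between mice of a group. The study housed mice together in groups of 4 or 5, so an effect of the cage may not be separable from diet or PE. The labels name no transgene or other agent, and bulk liver RNA was measured, so that a fall in the number of cells of a type and a fall in RNA per cell cannot be told apart.

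The urea cycle turns ammonia from amino acid breakdown into urea, which the kidney excretes. It runs almost only in the liver, mainly in periportal hepatocytes, and begins in mitochondria. There Nags makes N-acetylglutamate, the obligate activator of Cps1, Cps1 joins ammonia and bicarbonate to carbamoyl phosphate, and Otc transfers the carbamoyl group to ornithine to give citrulline. In the cytosol Ass1 joins citrulline and aspartate, Asl splits the product into arginine and fumarate, and Arg1 splits arginine into urea and ornithine. Slc25a15 carries ornithine into mitochondria in exchange for citrulline, and Slc25a13 (citrin) exports the aspartate that Ass1 uses.

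Ass1 was the member that passed the test in every pairwise comparison, and its level fell with PE on both diets and with MD under both gavages. The calls for PE on MD and for MD under PE stood in every setting tried, whereas those for PE on CD and for MD under vehicle were lost in some. Arg1 fell with MD under both gavages, and no member rose in any comparison. On GRCm39, with the GENCODE annotation, Ass1 lies on chromosome 2 at 31352181 to 31410862 on the forward strand, and its canonical transcript has 16 exons over 1761 bases. Otc, whose pairwise log2 fold changes lay between −0.09 and 0.11, lies on chromosome X at 10118503 to 10187265 on the forward strand, with 10 exons over 2362 bases. Arg1 lies on chromosome 10 at 24791118 to 24803817 on the reverse strand, with 8 exons over 1611 bases. The promoters of Ass1 and Otc are shown as the member that moved most and, for contrast, a member that did not pass the test in any comparison. Each is the 250 bases before the start of the canonical transcript, in lower case, where capitals mark a GC box.
Ass1, chr2:31359904-31360153, forward strand: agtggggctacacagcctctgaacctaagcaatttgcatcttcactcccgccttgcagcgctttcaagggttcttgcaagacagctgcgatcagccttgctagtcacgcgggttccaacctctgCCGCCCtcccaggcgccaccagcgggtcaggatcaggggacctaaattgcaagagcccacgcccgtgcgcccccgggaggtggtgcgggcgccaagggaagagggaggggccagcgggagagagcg
Otc, chrX:10118253-10118502, forward strand: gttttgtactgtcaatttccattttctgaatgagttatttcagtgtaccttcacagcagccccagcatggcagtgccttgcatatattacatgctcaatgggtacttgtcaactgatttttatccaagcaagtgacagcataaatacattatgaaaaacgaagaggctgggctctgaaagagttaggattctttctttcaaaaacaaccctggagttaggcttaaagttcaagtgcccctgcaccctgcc
GC made up 64.0% of the Ass1 window and 41.6% of the Otc window, against a median of 53.2% over 21770 protein-coding genes. The capitals in the Ass1 window are CCGCCC, the GC box GGGCGG read on the other strand, at 126 to 121 bases before the start. Of all 21770 windows, 36.3% held that motif on either strand, and 3 of the 8 members did (Ass1, Nags and Slc25a15). Only 3 of the 8 member windows, those of Otc, Ass1 and Slc25a13, held no annotated exon of their gene. Those of Cps1, Asl, Arg1, Nags and Slc25a15 did, from other transcripts than the canonical one. The Ass1 window lies inside the span given for the gene, since the canonical transcript starts after the first base of that span. CCAAT was found in 2 members, Cps1 and Slc25a13, and in 36.5% of all windows. TGACG, a stretch of the cAMP response element, was found in Nags alone and in 18% of all windows. No member window held TATAAA (11.9% of all windows), TTNNGCAA of the C/EBP factors (9.34%), TGTTCT of the glucocorticoid response element (14.3%) or CAAAGTCCA of Hnf4a (0.372%). These matches describe letters in the windows and do not show binding.

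Together the 8 genes took between 0.811% and 1.06% of all counts in the CD + Veh libraries, a summary over genes of very different levels. Their share was 0.658% to 0.781% in CD + PE. On MD it was 0.687% to 0.798% with vehicle and 0.482% to 0.582% with PE. The summed level was 9224 ± 1146 CPM (counts scaled to one library total, with TMM factors; SD, n = 4) for CD + Veh and 5371 ± 749 CPM (SD, n = 5) in MD + PE, and these groups did not overlap. Per length, as CPM per kilobase of the canonical transcript, the order in CD + Veh was Ass1 (1872), Arg1 (788), Cps1 (610), Asl (163), Otc (148), Slc25a15 (75.3), Slc25a13 (40.2) and Nags (27.9). Mice overlapped in 2 neighbouring pairs of that order, Arg1 with Cps1 and Asl with Otc. Ass1 stood first in every group without overlap, down to 736 CPM per kilobase against 441 for Arg1 in MD + PE. Otc stood above Asl in the other groups, again with overlap.

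**Figure D1:**
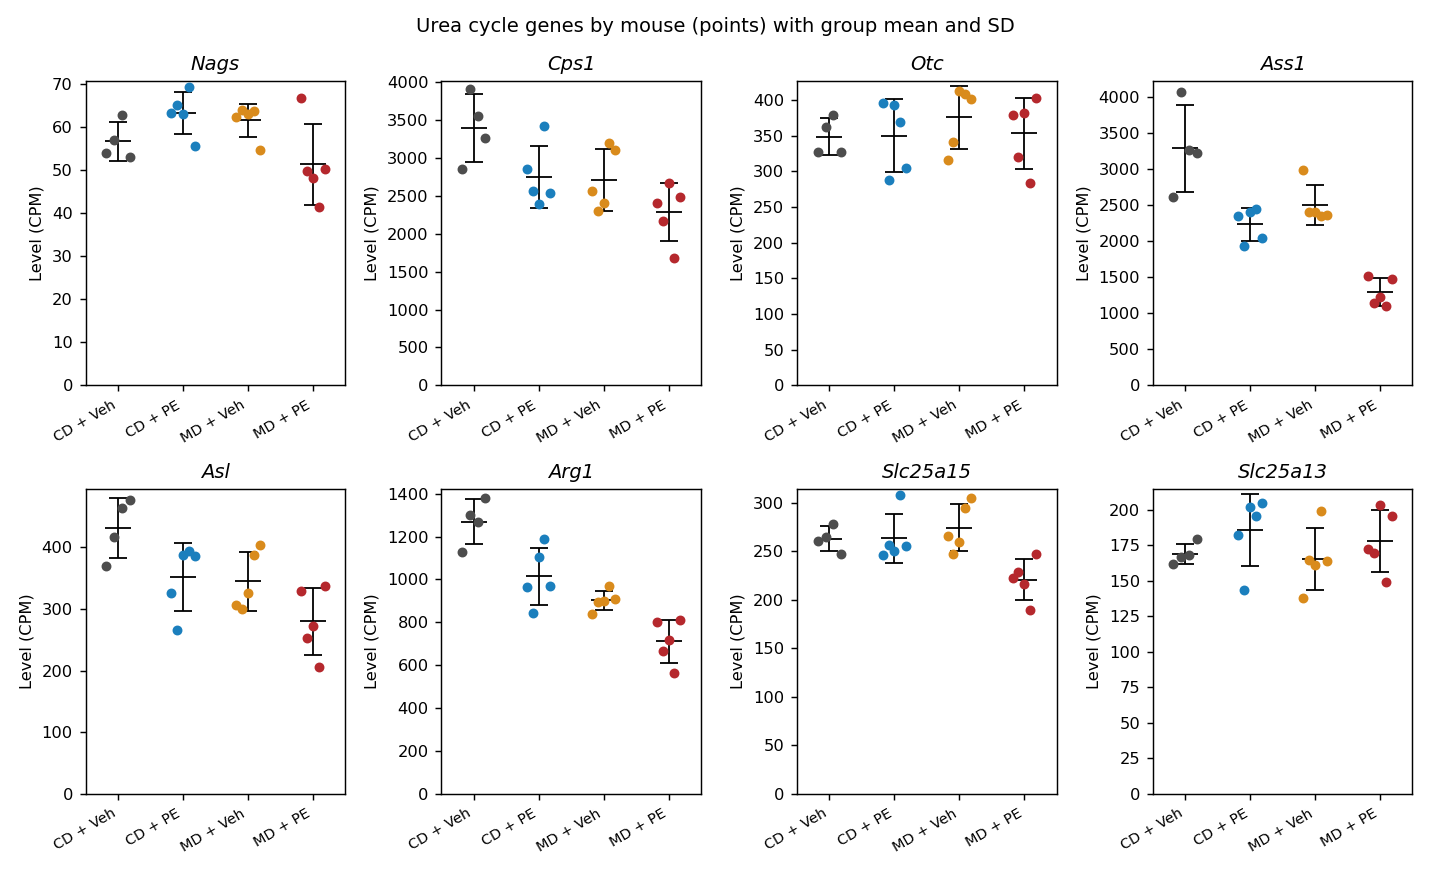
Level in CPM (scaled by TMM) of the 8 urea cycle genes, with 1 point for each mouse, a long bar for the group mean and short bars for 1 SD; each panel has its own axis from 0. Ass1 is lowest in MD + PE, between 1107 and 1523 CPM, below every mouse of the other groups, while Otc has groups that overlap throughout.

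PE against vehicle on the control diet asks what the particles alone went with. Of the 8 members 1 fell, Ass1, where 2.92% of all genes tested were called and 1.7% were called lower; a call here needs an adjusted p below 0.05 in edgeR's quasi-likelihood test and a log2 fold change of 0.38 or more in either direction. The median log2 fold change of the members was −0.15, against 0.01 over all genes tested (1.22% called higher), and 4 of the 8 were negative. Ass1, argininosuccinate synthase, was at 2612, 4080, 3268 and 3224 CPM in the CD + Veh mice and at 2351, 1939, 2405, 2446 and 2047 CPM in the CD + PE mice. Every CD + PE mouse lay below every CD + Veh mouse, and the fall was 32.1% (log2 fold change −0.56, SE 0.128, edgeR adjusted p = 0.0191). Without CD + Veh replicate 2, the highest of its group, the change was −0.44 (edgeR adjusted p = 0.0759), and with only CD + Veh and CD + PE in the fit it was −0.55 (edgeR adjusted p = 0.0527). With a covariate for the division of the libraries between numbers 45 and 46, described with the library order, it was −0.42 (edgeR adjusted p = 0.476). Of 10 periportal markers 1 fell in this comparison (Gls2) and of 10 pericentral markers 2 rose (Oat and Lgr5). The median log2 fold changes of these lists were −0.01 and 0.16, and the markers not called moved in both directions in each list. The part of these markers was not tested. Depth moved with the gavage, since the PE libraries held 10398820 to 12757617 counts and the vehicle libraries 13406037 to 15456729 counts.

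The neighbours of Ass1 in the cycle did not pass the test on the control diet. Asl, argininosuccinate lyase, averaged 432 ± 48.7 CPM (SD, n = 4) for CD + Veh and 352 ± 55.6 CPM (SD, n = 5) in CD + PE, and the groups overlapped (log2 fold change −0.29, SE 0.144, edgeR adjusted p = 0.300). Arg1, which releases urea, was at 1129, 1299, 1268 and 1380 CPM in CD + Veh and at 964, 845, 1106, 1189 and 969 CPM in CD + PE. Of the CD + PE mice, 1 lay within the range of CD + Veh, and the log2 fold change was −0.32 (SE 0.108, edgeR adjusted p = 0.102). Cps1, the entry enzyme, had a log2 fold change of −0.30 (SE 0.143, edgeR adjusted p = 0.280). Nags, Otc, Slc25a15 and Slc25a13 had values between 0.00 and 0.16, and their 95% intervals together ran from −0.24 to 0.38.

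PE against vehicle on MD asks the same on the steatohepatitis diet. Again 1 of the 8 members, Ass1, fell, where 1.08% of all genes tested were called and 0.934% were called lower. The members' median log2 fold change was −0.28 (−0.01 over all genes tested, with 0.147% called higher), and Slc25a13 alone had a positive value. Ass1 was at 2999, 2407, 2412, 2357 and 2363 CPM in MD + Veh and at 1523, 1152, 1224, 1107 and 1473 CPM in MD + PE. The lowest MD + Veh mouse stood well above the highest MD + PE mouse, and the fall was 48.3% (log2 fold change −0.95, SE 0.122, edgeR adjusted p = 0.000611). The call stood with each library left out in turn and under each alternative tried. Within library numbers 46 to 57 alone, where MD + Veh has 2 mice, the change was −0.85 (edgeR adjusted p = 0.0356).

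Arg1 did not overlap between the MD groups either, although it missed both the adjusted p and the fold limit of a call. Its MD + Veh mice were at 841, 897, 899, 968 and 909 CPM and its MD + PE mice at 800, 665, 718, 564 and 809 CPM. The log2 fold change was −0.34 (SE 0.102, edgeR adjusted p = 0.0935). Slc25a15, the ornithine carrier, had the lowest adjusted p among the members not called, at a change under the fold limit. It was at 266, 247, 260, 295 and 305 CPM in MD + Veh and at 222, 228, 216, 190 and 247 CPM in MD + PE, and the ranges met at one mouse on each side (log2 fold change −0.31, SE 0.0799, edgeR adjusted p = 0.0528). Nags was at 62.2, 63.9, 63.0, 63.6 and 54.5 CPM in MD + Veh. In MD + PE it was at 66.7, 49.8, 48.2, 41.5 and 50.1 CPM, so that replicate 1 of MD + PE was above every MD + Veh mouse and the other 4 below them (log2 fold change −0.26, SE 0.0980, edgeR adjusted p = 0.189). Cps1 (−0.25), Otc (−0.09), Asl (−0.30) and Slc25a13 (0.11) had edgeR adjusted p-values between 0.288 and 0.766.

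**Figure D2:**
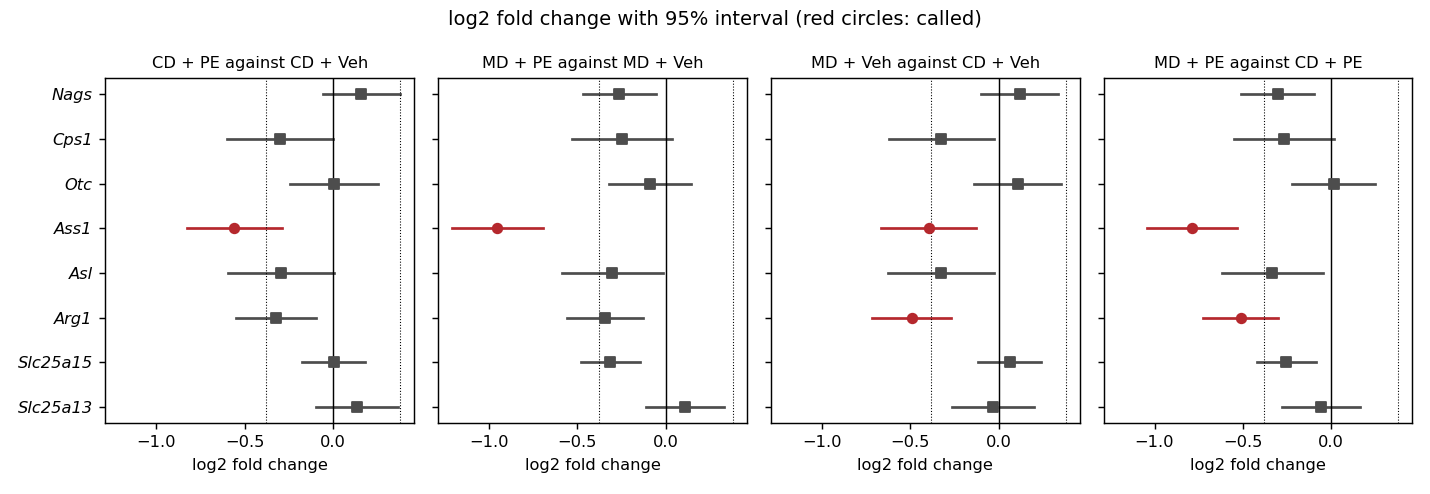
Log2 fold change of each urea cycle gene in the 4 pairwise comparisons, with its 95% interval from edgeR; red circles mark members called, grey squares the others, and dotted lines the limit of 0.38 in each direction. Ass1 is called in all panels, from −0.39 to −0.95, and Arg1 in both comparisons of MD with CD.

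MD against CD under vehicle asks what the diet alone went with. Arg1 and Ass1, 2 of the 8 members, fell, where 10.4% of all genes tested were called and 5.63% were called lower. The median log2 fold change of the members was −0.18, against −0.00 over all genes tested, of which 4.74% were called higher. Arg1 fell by 28.9%, from 1269 ± 105 CPM (SD, n = 4) to 903 ± 45.3 CPM (SD, n = 5) in MD + Veh, with no overlap between mice (log2 fold change −0.49, SE 0.107, edgeR adjusted p = 0.00429). This call stood in every setting tried and with each library left out. The Ass1 call was narrow, at a fall of 23.9% (log2 fold change −0.39, SE 0.128, edgeR adjusted p = 0.0460), and CD + Veh replicate 1 lay within the range of MD + Veh. It was lost in 5 of 10 other settings, in which the edgeR adjusted p ran up to 0.185. It was also lost without any 1 of CD + Veh replicates 2, 3 and 4, CD + PE replicates 1, 3, 4 and 5, MD + PE replicates 2 and 3, or MD + Veh replicates 2, 3, 4 and 5, which are 13 of 19 libraries, with changes of −0.48 to −0.28 over all 19 and an edgeR adjusted p of up to 0.177.

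The other enzymes and both carriers did not pass the test between the vehicle groups. Cps1 was at 2845, 3898, 3552 and 3264 CPM in CD + Veh and at 2556, 2301, 2398, 3198 and 3095 CPM in MD + Veh, with overlap (log2 fold change −0.32, SE 0.143, edgeR adjusted p = 0.141). Asl had nearly the same change, −0.33 (SE 0.144, edgeR adjusted p = 0.141). Within library numbers 39 to 45 alone, with 4 CD + Veh and 3 MD + Veh mice, both were called, Cps1 at −0.48 (edgeR adjusted p = 0.0290) and Asl at −0.47 (edgeR adjusted p = 0.0161), while Ass1 was not (−0.33, edgeR adjusted p = 0.185). Otc (0.11), Nags (0.12), Slc25a15 (0.06) and Slc25a13 (−0.03) had edgeR adjusted p-values between 0.480 and 0.880.

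Markers of other cell types and of hepatocytes themselves differed between CD + Veh and MD + Veh beside these falls. Of 10 hepatocyte markers, 3 fell (Alb, Apoa1 and Fgb) and 1 rose (Cyp3a11) in MD + Veh against CD + Veh, and the list's median log2 fold change was −0.36. The summed hepatocyte markers ran from 90066 to 107074 CPM with vehicle and from 82762 to 114457 CPM with PE on CD. On MD they ran from 66340 to 84311 CPM with vehicle and from 66088 to 82150 CPM with PE, and no marker was at 0 in any group. Of 10 periportal markers, 3 fell between the vehicle groups (Gls2, Sds and Cdh1), and of 10 pericentral markers 3 rose (Oat, Rhbg and Cyp2e1). The median log2 fold changes of these lists were −0.18 and 0.12, and the markers not called moved in both directions in each list. Skeletal muscle markers were higher in MD + Veh too, all 10 of them, with a median log2 fold change of 5.93, but very unevenly between mice. They summed to 1.31 to 41.1 CPM in CD + Veh and to 3303, 207, 151, 17.2 and 2.78 CPM in the MD + Veh mice. None of them was called in MD + PE against CD + PE, so this difference did not go with MD under both gavages. Of 12 macrophage markers 2 rose (Lyz2 and Gpnmb), of 6 adipocyte markers both that were tested rose (Cfd and Cidec), and of 12 intestinal markers, 4 tested, 1 rose (Fabp2). The part of these markers in the falls of Ass1 and Arg1 was not tested. In MD + PE against MD + Veh, where Ass1 fell most, 1 of the 10 hepatocyte markers was called lower (Apoc3, −0.41), and the ranges of the sums overlapped. There 2 of the 10 periportal markers fell (Gls2 and Aldh1b1), with a list median of −0.11. Of the 10 skeletal muscle markers 5 fell, with a list median of −8.72 and sums of 1.44 to 3.58 CPM in MD + PE. Ass1 was still called there without the 4 libraries highest in skeletal muscle, bile duct, intestinal and macrophage markers, MD + Veh replicate 1 among them. Libraries highest in other lists were kept.

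Under PE, the comparison of MD with CD again had Ass1 and Arg1 lower, 2 of the 8 members, where 4.61% of all genes tested were called and 2.92% were called lower. Here the members' median log2 fold change was −0.29, against −0.02 over all genes tested, of which 1.69% were called higher. The fall of Ass1 was 42.1% (log2 fold change −0.79, SE 0.122, edgeR adjusted p = 0.000440) and that of Arg1 29.9% (−0.51, SE 0.102, edgeR adjusted p = 0.00404). Neither gene overlapped between CD + PE and MD + PE, and both calls stood in every setting tried. Nags (−0.30, edgeR adjusted p = 0.0710) and Slc25a15 (−0.25, edgeR adjusted p = 0.0608) came next without passing. Without MD + PE replicate 1, its highest mouse in that group, Nags was called (−0.42, edgeR adjusted p = 0.00371), and without CD + PE replicate 2 Asl was (−0.42, edgeR adjusted p = 0.0494). Hepatocyte markers moved here too, with 5 of 10 lower and 1 higher, and so did periportal markers, with 3 of 10 lower and a list median of −0.41. Both adipocyte markers tested rose again, and 1 marker each of the macrophage (Gpnmb), stellate cell (Reln) and intestinal (Fabp2) lists rose, and their part was not tested. These comparisons share groups with each other, so their members' values are not independent of one another.

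Whether the change with PE differed between the diets was tested as an interaction. No member passed in edgeR or in DESeq2, where 0.00735% of all genes tested, a single gene, was called by edgeR. An unadjusted edgeR p below 0.05, a looser limit than that of a call, was seen for 3 members. The share of all genes tested under that looser limit was not counted. The 3 members were Nags (−0.42, SE 0.143, edgeR adjusted p = 0.363), Slc25a15 (−0.32, edgeR adjusted p = 0.419) and Ass1 (−0.39, edgeR adjusted p = 0.535), each with a lower value for PE on MD than on CD. For Ass1 the unadjusted 95% interval of this difference ran from −0.76 to −0.02, and a larger fall on MD than on CD was not shown after adjustment over all genes. On CD, Nags averaged 56.6 ± 4.46 CPM with vehicle (SD, n = 4) and 63.2 ± 4.91 CPM with PE (SD, n = 5). On MD it averaged 61.4 ± 3.91 CPM with vehicle and 51.2 ± 9.32 CPM with PE (SD, n = 5 each).

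Ratios within a library do not depend on its scaling, and the counts of Ass1 were set against those of its neighbours in this way. Per library, Ass1 counts were 7.66 ± 1.43 times those of Asl in CD + Veh (SD, n = 4). The ratio was 6.44 ± 0.825 with PE on CD, 7.43 ± 1.61 with vehicle on MD and 4.68 ± 0.398 with PE on MD (SD, n = 5 each). In MD + PE every ratio lay between 4.36 and 5.37, below all MD + Veh mice (5.84 to 9.80) and overlapping CD + PE at its lowest mouse (5.30). Against Cps1, the ratio was 0.968 ± 0.0615 in CD + Veh and 0.575 ± 0.0812 in MD + PE, whose highest mouse (0.658) lay below the lowest of every other group (0.715). These ratios are given as a description and were not tested.

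Between mice of a group the members varied together to different degrees. After each group's mean was subtracted, log2 CPM of the 28 pairs of members correlated over 19 libraries with Pearson's r from 0.0346 to 0.881, with a median of 0.508. These correlations are descriptions, since all values of a mouse share a library and a scaling factor. The closest pair was Asl and Arg1 (r = 0.881), and each was among the 3 genes most like the other out of 9393 genes whose mean reached 5 CPM. Genes like Cps1 were Tk1 (r = 0.881), which encodes thymidine kinase, and Proz (0.854). For Otc these were Kmo (0.942), Adtrp (0.928) and C1rl (0.913). Ass1 had Clcn2 (0.842), Dyrk1b (0.825) and Mrpl27 (0.820), and no other member. Besides each other, Asl had Serpinf1 (0.894) and Atg3 (0.883), and Arg1 had Sephs2 (0.866). Nags was most like Sympk (0.853), Rexo1 (0.825) and Sh3gl1 (0.821). The ornithine carrier Slc25a15 had Tma7 (0.875), Proser2 (0.872) and Fh1 (0.869), while the aspartate carrier Slc25a13 had Fetub (0.904), Tspan12 (0.904) and Gc (0.898), genes of which Fetub and Gc encode secreted liver proteins.

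Enzymes that deliver ammonia to the cycle were read from a list of 20 genes of ammonia, glutamine and glutamate handling, 19 of them tested. With PE on CD 1 rose and 1 fell, and with PE on MD 1 fell. With MD, 2 rose and 3 fell under vehicle and 4 fell under PE. The list's median log2 fold change was 0.09 and −0.11 for PE on CD and MD, and 0.01 and −0.20 for MD under vehicle and PE. Over all genes tested it was 0.01, −0.01, −0.00 and −0.02 in that order, with 2.92%, 1.08%, 10.4% and 4.61% called. Gls2, liver glutaminase, which frees ammonia from glutamine in periportal mitochondria, fell in all 4 comparisons, as Ass1 did. It was at 279, 364, 363 and 312 CPM in CD + Veh and at 269, 210, 259, 285 and 203 CPM in CD + PE. MD + Veh was at 247, 191, 213, 231 and 235 CPM and MD + PE at 145, 122, 140.4, 104 and 132 CPM. MD + PE lay below every other group without overlap, and the log2 fold change with PE on MD was −0.79 (SE 0.112, edgeR adjusted p = 0.00114).

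On CD the fall of Gls2 with PE was at the edge of the threshold (−0.42, edgeR adjusted p = 0.0496), and leaving out libraries singly, it stood only without CD + Veh replicate 1, CD + PE replicate 4, MD + Veh replicate 2 or MD + PE replicate 4 and was lost with the other 15 (edgeR adjusted p of up to 0.142). With MD it was −0.56 under vehicle and −0.93 under PE, calls that stood in every setting tried. Glud1, glutamate dehydrogenase, which releases ammonia from glutamate, rose with PE on CD (0.41, edgeR adjusted p = 0.00870) and with MD under vehicle (0.47, edgeR adjusted p = 0.000800). It was at 671, 769, 764 and 801 CPM in CD + Veh and between 911 and 1164 CPM in all mice of the other groups, with no overlap. Slc38a3, a glutamine transporter of hepatocytes, fell with MD under vehicle (−0.70, edgeR adjusted p = 0.00224) and under PE (−0.71, edgeR adjusted p = 0.00275). Got1, cytosolic aspartate aminotransferase (−1.0), and Slc25a22, a mitochondrial glutamate carrier (−0.52), fell in MD + PE against CD + PE. The Got1 call was lost with only the groups compared (edgeR adjusted p = 0.0549). Without the 4 libraries highest in other markers, Got1 (edgeR adjusted p = 0.0830) and Slc25a22 (edgeR adjusted p = 0.0585) were not called. Between the vehicle groups Rhbg, an ammonia transporter, rose by 1.24 from a low level, and Slc38a2 fell by 0.47 on the log2 scale. Glul, which binds ammonia into glutamine in pericentral hepatocytes, averaged 1211 ± 163 and 1081 ± 123 CPM with vehicle and PE on CD and 1269 ± 76.7 and 1128 ± 78.5 CPM on MD, and passed no test. The mitochondrial carbonic anhydrase Car5a, which supplies bicarbonate to Cps1, averaged 50.7 to 58.8 CPM in the CD groups and 54.6 and 47.2 CPM in the MD groups, and it passed no test either.

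**Figure D3:**
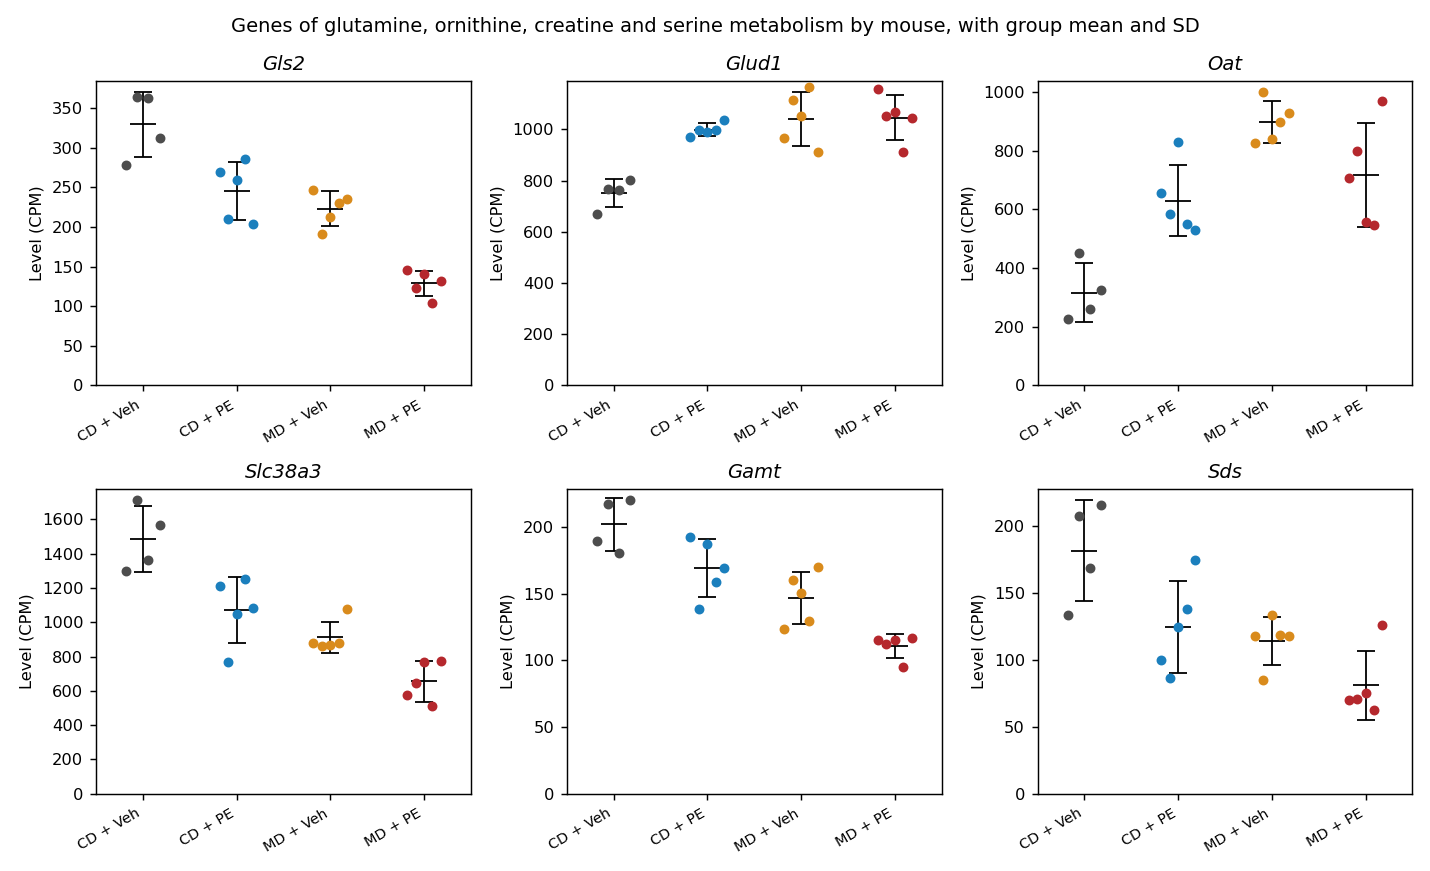
Level in CPM (scaled by TMM) of Gls2, Glud1, Oat, Slc38a3, Gamt and Sds, with 1 point for each mouse, a long bar for the group mean and short bars for 1 SD; each panel has its own axis from 0. Gls2 steps down to 104 to 145 CPM in MD + PE, whereas Oat and Glud1 are lowest in CD + Veh.

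Arginine and ornithine leave the cycle through other enzymes, and 12 of 17 genes on that list were tested. With PE on CD 1 rose, with MD under vehicle 1 rose and 1 fell, with MD under PE 1 fell, and none was called for PE on MD. Of all genes tested, 2.92%, 10.4%, 4.61% and 1.08% were called in that order. The gene that rose was Oat, ornithine aminotransferase, which takes ornithine towards glutamate in pericentral hepatocytes. Oat was at 227, 452, 261 and 325 CPM in CD + Veh and at 655, 585, 829.8, 551 and 529.9 CPM in CD + PE. No CD + PE mouse lay within the CD + Veh range, and the log2 fold change was 0.99 (SE 0.193, edgeR adjusted p = 0.00714). In MD + Veh the mean was 898 ± 70.6 CPM (SD, n = 5) and the change against CD + Veh 1.5 (SE 0.196, edgeR adjusted p = 4.77e-05). PE on MD gave a value of −0.33 (edgeR adjusted p = 0.400), and the interaction was −1.32 (SE 0.262, edgeR adjusted p = 0.156). Gamt, which makes creatine from an arginine product, fell with MD under vehicle (−0.46, edgeR adjusted p = 0.00680) and under PE (−0.61, edgeR adjusted p = 0.000916). Slc25a12, the other mitochondrial aspartate carrier, averaged 15.9 and 13.3 CPM with vehicle and PE on CD and 16.2 and 10.8 CPM on MD and passed no test. Arg2, the mitochondrial arginase, was under the filter, with a highest group mean of 1.43 CPM in MD + PE.

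Amino acid breakdown, the source of the nitrogen, gave 31 tested genes of 32. With PE, 1 rose and 1 fell on CD and 2 fell on MD. With MD, 4 rose and 2 fell under vehicle, and 1 rose and 3 fell under PE. The list's median log2 fold change was 0.03, −0.17, 0.17 and −0.12 in that order. Over all genes tested it was 0.01, −0.01, −0.00 and −0.02, with 2.92%, 1.08%, 10.4% and 4.61% called. On CD, Agxt, which turns glyoxylate to glycine, rose with PE (0.47, edgeR adjusted p = 0.0241), and Prodh, which opens proline breakdown, fell (−0.65, edgeR adjusted p = 0.0348). The call of Prodh was lost with only the groups compared (edgeR adjusted p = 0.0981), with the replicate block (0.0535), without the 4 libraries highest in other markers (0.0534) and without any 1 of CD + Veh replicates 2 and 4 or CD + PE replicates 2, 3 and 5 (edgeR adjusted p of up to 0.132). On MD the genes that fell with PE were Haao of tryptophan breakdown (−0.50, edgeR adjusted p = 0.00702) and Hgd of tyrosine breakdown (−0.46, edgeR adjusted p = 0.00773). Within library numbers 46 to 57 alone neither was called (edgeR adjusted p = 0.177 for Haao and 0.155 for Hgd). Between the vehicle groups the glycine cleavage gene Gldc (0.95), Cth of cysteine synthesis (0.54), Agxt2 (0.45) and Ivd of leucine breakdown (0.41) rose. The serine dehydratases Sds (−0.67, edgeR adjusted p = 0.0408) and Sdsl (−0.47) fell there. Under PE, MD had Agxt (−0.75), Haao (−0.51) and Sdsl (−0.49) lower and Ddah1, which breaks down methylated arginine, higher (0.45). Tat, tyrosine aminotransferase, averaged 2088 ± 536 CPM (SD, n = 4) for CD + Veh and 1238 ± 261 CPM (SD, n = 5) in MD + PE and passed no test, with wide spread between mice.

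Transcription factors and signalling genes that are known to act on urea cycle genes formed a list of 20, all tested. None was called for PE on either diet, and 1 each was called for MD under vehicle and under PE. Of all genes tested, 10.4% and 4.61% were called in those comparisons of MD with CD. Nr1h4, the bile acid receptor FXR, fell with MD under vehicle (−0.53, edgeR adjusted p = 0.00108), and Cebpa, a factor of the C/EBP family, fell with MD under PE (−0.40, edgeR adjusted p = 0.00737). The Cebpa call was lost with RLE normalization and with DESeq2, where its change of −0.377 was under the fold limit. The list's median log2 fold changes were 0.07 and 0.08 for PE on CD and MD, and −0.07 and 0.00 for MD under vehicle and PE. On none of these 4 lists was any gene called for the interaction.

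Libraries differed in ways that the groups do not explain. A pair of ribosomal pseudogenes divided the libraries by number. Rps6-ps4 had 1088 to 1690 counts and Rps12-ps3 had 314 to 587 counts in numbers 39 to 45, against 0 counts of each in numbers 46 to 57. The vehicle mice have numbers 39 to 47 and the PE mice 48 to 57, so PE and the order of the libraries cannot be told apart on either diet. On CD, in addition, every vehicle mouse lies before this division and every PE mouse after it. With the division as a covariate, Ass1 was not called for PE on CD (−0.42, edgeR adjusted p = 0.476), and 37 of all genes were. In that fit the changes of Oat (0.95), Glud1 (0.42), Gls2 (−0.53), Agxt (0.72) and Prodh (−0.77) were not called either, with edgeR adjusted p-values from 0.0949 to 0.298. Without the covariate the changes of Ass1 and Oat were larger, that of Glud1 was nearly the same, and those of Gls2, Agxt and Prodh were smaller. The fit estimates the division from the MD + Veh mice alone, and the cause of these shifts was not tested. MD + Veh is the only group on both sides, and its Ass1 levels were 2999, 2407 and 2412 CPM before the division and 2357 and 2363 CPM after it. In this group Ass1 was thus lower after the division without overlap, while Cps1, Asl, Arg1 and Slc25a15 were higher without overlap. With so few mice on each side many genes can separate, and their share over all genes tested was not counted. Cps1 went from 2556, 2301 and 2398 to 3198 and 3095 CPM, and Asl from 306, 301 and 325 to 388 and 405 CPM. Arg1 went from 841, 897 and 899 to 968 and 909 CPM, and Slc25a15 from 266, 247 and 260 to 295 and 305 CPM. Otc, Nags and Slc25a13 overlapped across it, and the cause was not tested. The library highest in a marker list of another tissue or cell type was MD + Veh replicate 1 for skeletal muscle (3303 CPM summed), MD + PE replicate 2 for bile duct and gallbladder (169 CPM) and CD + PE replicate 2 for macrophages (828 CPM). For intestinal epithelium it was MD + PE replicate 4 (4090 CPM), or MD + PE replicate 2 (354 CPM) without Apoa4, which liver also makes. The defining intestinal factors Cdx1 and Cdx2 were at 0 in CD + Veh, CD + PE and MD + Veh. In MD + PE both were found, and replicate 2 had counts of all 12 intestinal markers. Kidney markers summed to at most 0.731 CPM in any mouse. Without these 4, Ass1 fell with PE on MD by 0.76 on the log2 scale (edgeR adjusted p = 0.0155), and the same members were called in each comparison. The part of these tissues in the results was not tested otherwise.

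**Figure D4:**
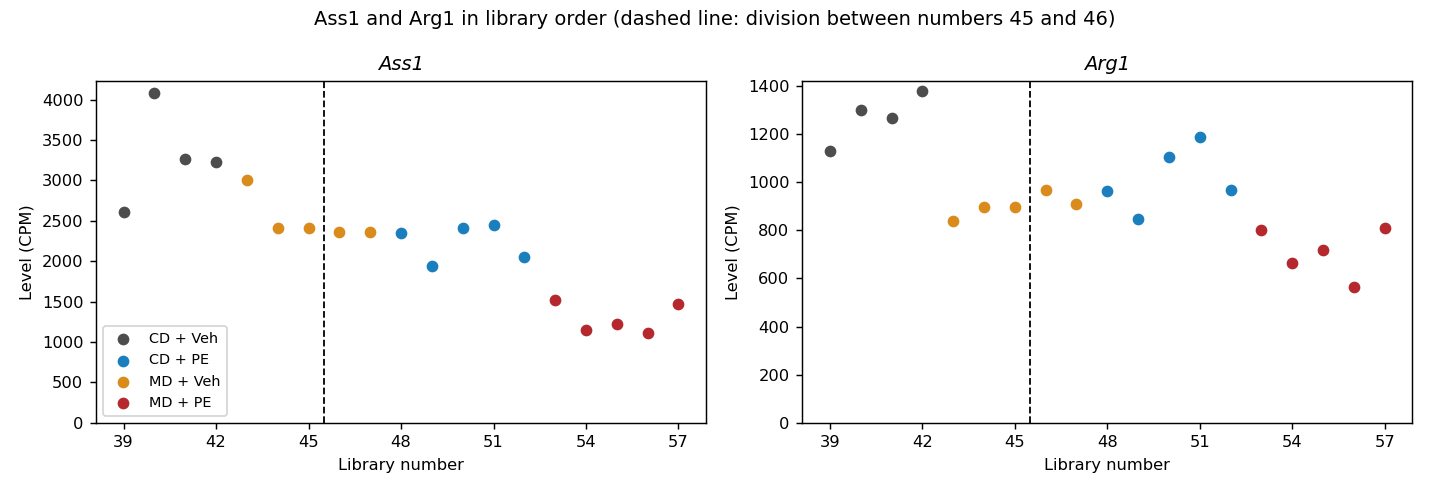
Level in CPM (scaled by TMM) of Ass1 and Arg1 against the library number, 1 point for each mouse, coloured by group; the dashed line is the division between numbers 45 and 46. Groups follow each other in library order, and the MD + Veh mice on both sides of the line have Ass1 levels of 2407 to 2999 and 2357 to 2363 CPM. Their Arg1 levels are 841 to 899 CPM before the line and 909 to 968 CPM after it.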

How the data were processed

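Liver RNA of 19 mice was sequenced as stranded poly(A) libraries. The authors trimmed reads with fastp 0.23.4, quantified them with Salmon 1.10.3 (GRCm39, GENCODE transcripts) and used tximport to obtain gene values. The deposited table gives these estimated counts, which are whole numbers and not normalized, for 55836 genes. Totals were 10398820 to 15456729 counts per library. Groups came from the sample labels.

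The test was run with edgeR 4.0.16 in R 4.3.3 (TMM, filterByExpr by group, quasi-likelihood F test, all 19 libraries, 1 coefficient per group), with Benjamini-Hochberg adjustment over 13597 genes. Genes were called at an adjusted p below 0.05 and an absolute change of 0.38 on the log2 scale. SE comes from the log2 fold change and its F value, and CPM use library sizes scaled by TMM. Promoters and lengths are those of canonical transcripts in GENCODE vM39 on GRCm39.

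Alternatives were RLE normalization, DESeq2 1.42.0, no filter, a stricter filter (10 counts in every library of a group), robust dispersion, no minimum change, a fit to only the groups compared, a replicate block, a covariate for library numbers up to 45 against those from 46, and each library left out. Fits within 1 side of the division, and without 4 libraries high in other markers, were added after seeing the data. The members and gene lists were chosen with earlier results of these data known. Named genes are all members, 8 neighbours of the cycle always reported (Glul, Gls2, Oat, Arg2, Car5a, Slc25a12, Tat and Sds), up to 6 called genes of each list with the largest change per comparison, and the 3 genes most like each member, some of which are not reported here. Genes of the tissue marker lists, Rps6-ps4 and Rps12-ps3 were named after their values were seen. The scripts were tested on simulated counts. Replicate numbers recur in all groups, but deviations from group means in 27 same-number pairs had a median correlation of 0.0293, over 0.1 in 6 of them, and samples were treated as unpaired. No library was a copy of another.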

Additional observations from a re-analysis of the deposited data

Results flagged for a closer look

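For the 8 members and 8 genes around the cycle (Gls2, Oat, Glud1, Slc38a3, Gamt, Sds, Car5a and Glul), 64 combinations of gene and group were examined for 1 mouse far from the others of its group, by the gap to the nearest mouse over the group's range. Chance alone marks about 1 in 20 such groups, and 7 of 64 were marked. Among the members, Ass1 in MD + Veh was at 2999 CPM in replicate 1, with the nearest mouse at 2412 CPM. This is also the library highest in skeletal muscle markers, and without it Ass1 still fell with PE on MD. Nags in MD + Veh was at 54.5 CPM in replicate 5, with the nearest at 62.2 CPM. Slc25a15 in CD + PE was at 308 CPM in replicate 4, with the nearest at 257 CPM. Among the other genes, Slc38a3 was at 1075 CPM in MD + Veh replicate 5 (nearest 879.7 CPM) and Gamt at 94.7 CPM in MD + PE replicate 4 (nearest 112 CPM). MD + PE replicate 5 was high for Sds at 126 CPM (nearest 75.0 CPM) and for Glul at 1265 CPM (nearest 1108 CPM).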

How the results depend on the processing

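The call of Ass1 for PE on MD, and the calls of Ass1 and Arg1 for MD under PE and of Arg1 for MD under vehicle, stood in every setting and with each library left out. For PE on CD the members called went from 1 to 0 with only the groups compared and with the division as a covariate, and was 0 to 1 with single libraries left out (0 without CD + Veh replicate 2). For MD under vehicle, 2 members became 1 with no filter, with only the groups compared and with the replicate block, and 3 (Cps1, Asl and Arg1) with the division as a covariate and in library numbers 39 to 45; with libraries left out the count was 1 to 2. In the replicate block, Ass1 there had a change of −0.40 (edgeR adjusted p = 0.0720), and the block changed no other call of a member. Of the neighbouring genes it lost Prodh (edgeR adjusted p = 0.0535) and Gls2 (0.0764) for PE on CD. Counts for PE on MD (1 in each) and for the interaction (0 in each) did not move, and MD under PE had 2 to 3.

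Signs changed only among members not called. The interaction of Asl was 0.0061 with RLE, 0.0072 with DESeq2, 0.061 with the block, 0.14 with the division and 0.028 without the 4 libraries, and −0.093 to 0.082 with single libraries left out. That of Arg1 was 0.018 with the division, 0.019 without the 4 libraries and −0.080 to 0.049 with single ones left out. That of Slc25a13 was 0.0048 with the block, 0.071 with the division and −0.11 to 0.049, and that of Cps1 −0.020 to 0.14. For PE on CD, Otc was −0.0063 with no filter, −0.0084 with the block, −0.18 with the division and −0.039 to 0.069, Slc25a15 was −0.0087, −0.021, −0.21 and −0.046 to 0.039 in that order, and Slc25a13 was −0.099 with the division. For PE on MD, Slc25a13 was −0.028 with the division and −0.013 in numbers 46 to 57. For MD under vehicle, Slc25a15 was −0.028 with the division and −0.019 in numbers 39 to 45, and Slc25a13 was 0.037 without the 4 libraries and −0.11 to 0.043. For MD under PE, Otc was −0.050 to 0.093 and Slc25a13 −0.14 to 0.010. The cause was not tested.

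Of 32 calls of neighbouring genes, none turned its direction, 17 stood in every setting and 20 with each library left out. Lost with single libraries, besides Gls2, were Prodh, Agxt and Glud1 for PE on CD, Cth, Sds, Sdsl, Slc38a2 and Ivd for MD under vehicle, and Cebpa, Got1 and Sdsl for MD under PE. Other settings lost Agxt, Gls2, Glud1, Oat and Prodh for PE on CD, and Haao and Hgd for PE on MD. They also lost Cth, Ivd, Sds, Sdsl and Slc38a2 for MD under vehicle, and Cebpa, Got1 and Slc25a22 for MD under PE. Over all genes, 397 calls for PE on CD became 37 with the division as a covariate and 215 to 426 with single libraries left out. For PE on MD, 147 became 303 with DESeq2, 73 with only the groups compared, 33 with the division, 54 without the 4 libraries, 18 in numbers 46 to 57 and 56 to 243 with single libraries left out. For MD under PE, 627 became 964 with no minimum change and 505 to 987 with single libraries left out, and the interaction gave 80 with DESeq2, 54 with the division and 41 with the block against 1. Arg2 was too low to be tested at this depth.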
